A study of Homo sapiens with 12 samples.

Results

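MYOD1 and TNNT1, both genes of skeletal muscle, were followed through 12 RNA-seq libraries of transfected palatal mesenchymal cells. They were chosen by name, for the known repression of myogenesis by the homeodomain factor MSX1, and are 2 of the 666 genes in the deposited expression table. The K139Q group carried MSX1 with glutamine, which resembles acetylated lysine, in place of a lysine, and the K139R group carried MSX1 with arginine, which cannot be acetylated, at the same residue. The MSX1 group carried the full-length unchanged factor and the Vector group the empty plasmid. Each group had 3 libraries, all from plasmid-transfected cells labelled 8 h, a time whose starting point is not stated. The labels name 1 human cell line, HEPM, as the source of every library and the gene identifiers are human, whereas the study's text describes mouse MEPM cells. The study's methods call the replicates biological, and the labels do not say whether they were separate cultures or transfections, so p-values measure the spread between these libraries. The label names of the K139R and K139Q libraries also carry R157S and R157K, and the titles were followed.

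MYOD1 encodes a basic helix-loop-helix transcription factor that binds E-box motifs and can commit mesenchymal cells to the muscle lineage. TNNT1 encodes the slow skeletal isoform of troponin T, the subunit that anchors the troponin complex to tropomyosin on the thin filament, and it is normally a marker of differentiated slow fibres. In mouse and cell culture work MSX1 is known to hold back myogenic differentiation, in part by repressing MYOD1. The comparisons asked how either gene differed between cells given MSX1, its acetylation mimic or its deacetylated form and cells given the empty plasmid.

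Every library with an MSX1 plasmid carried far more MSX1 transcript than the Vector libraries. The MSX1 expression value ranged from 8006 to 13893 in the K139Q libraries, from 5812 to 13561 in the K139R libraries and from 4672 to 6959 in the MSX1 libraries, against 17.15 to 20.28 in the Vector libraries. Transcripts from the plasmid and from the cells' own gene are not separated in them. The table holds no counts, the unit of the values is not stated, and the study's methods give a target depth but not the reads obtained per library, so no counting error can be attached and levels of different genes are not compared. The authors built the list from genes that separated MSX1 from Vector in this experiment. The MSX1 to Vector values below are thus no independent evidence of a difference, and an adjusted p covers only what is listed. Comparisons of K139R or K139Q with either group reuse those libraries, so they are not independent of the choice either. Of 16 mesenchymal markers, COL1A1 and S100A4 were in the table, and the other 14 could not be checked in these values.

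In the GENCODE 29 annotation of GRCh38, MYOD1 (ENSG00000129152) lies at chr11:17719568-17722131 on the plus strand, with 1 transcript of 3 exons and 1801 bases. TNNT1 (ENSG00000105048) lies at chr19:55132794-55149354 on the minus strand, with 17 transcripts, the longest of 14 exons and 1163 bases. Neither span overlapped another annotated gene. One of the 2 genes, TNNT1, matched a promoter entry of RefSeq on GRCh38.p14. Its sequence, chr19:55149157-55149456 read 5′ to 3′ on the minus strand from 250 bases before to 50 bases after the start, is shown because MYOD1 protein binds E-boxes. The capitals mark CANNTG, the E-box.
TNNT1 promoter: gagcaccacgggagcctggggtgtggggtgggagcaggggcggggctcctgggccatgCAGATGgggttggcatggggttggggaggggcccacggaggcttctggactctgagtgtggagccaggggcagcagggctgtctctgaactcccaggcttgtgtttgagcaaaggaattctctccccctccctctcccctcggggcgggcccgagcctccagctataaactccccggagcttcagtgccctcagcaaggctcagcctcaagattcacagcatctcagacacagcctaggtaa
Both strands were searched. The window held 1 E-box, whose first base lies at -192 from the start, and 68.7% of 35116 promoter windows of the same length held at least 1. A TATAAA box lay at -29, a motif found in 11.5% of the windows. No match was found for 3 other motifs. The E-box variant CAGCTG was found in 17.95% of all windows. The homeodomain core TAATTG was found in 7.38% of all windows. The core CATTCC of the M-CAT element, which TEA domain factors bind, was found in 14.03% of all windows.

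MYOD1 had a value below 1 in every library and was lowest in the Vector group. Its expression value was 0.70, 0.99 and 0.47 in K139Q replicates 1 to 3. In the K139R replicates it was 0.40, 0.32 and 0.23. In the MSX1 replicates it was 0.69, 0.41 and 0.87, against 0.14, 0.18 and 0.14 in the Vector replicates. No library with an MSX1 plasmid overlapped the Vector range, and the K139R libraries lay below every library of both other plasmid groups. The margin to MSX1 was the smallest recorded step, 0.40 in K139R replicate 1 against 0.41 in MSX1 replicate 2. The means were 0.720 ± 0.261 in K139Q, 0.317 ± 0.0850 in K139R, 0.657 ± 0.232 in MSX1 and 0.153 ± 0.0231 in Vector (SD, n = 3 each). All of these values lie below 1, were recovered in steps of 0.01 and rest on an unknown number of reads. The part of counting error in the SD cannot be given. In bulk RNA, fewer cells that express a gene and less of its RNA per cell cannot be told apart.

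TNNT1 had a value of at least 15.49 in all 12 libraries, the Vector libraries included. Its expression value was 36.32, 49.66 and 47.20 in K139Q replicates 1 to 3. In the K139R replicates it was 44.83, 33.45 and 20.22. In the MSX1 replicates it was 56.14, 52.46 and 56.77, against 19.37, 34.99 and 15.49 in the Vector replicates. The 3 MSX1 libraries lay above every other library, the K139Q libraries lay between them and the Vector libraries, and the K139R libraries spanned the top Vector library. The means were 44.4 ± 7.10 in K139Q, 32.8 ± 12.3 in K139R, 55.1 ± 2.33 in MSX1 and 23.3 ± 10.3 in Vector (SD, n = 3 each). The coefficient of variation within a group ran from 4.22% in MSX1 to 44.3% in Vector.

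**Figure D1:**
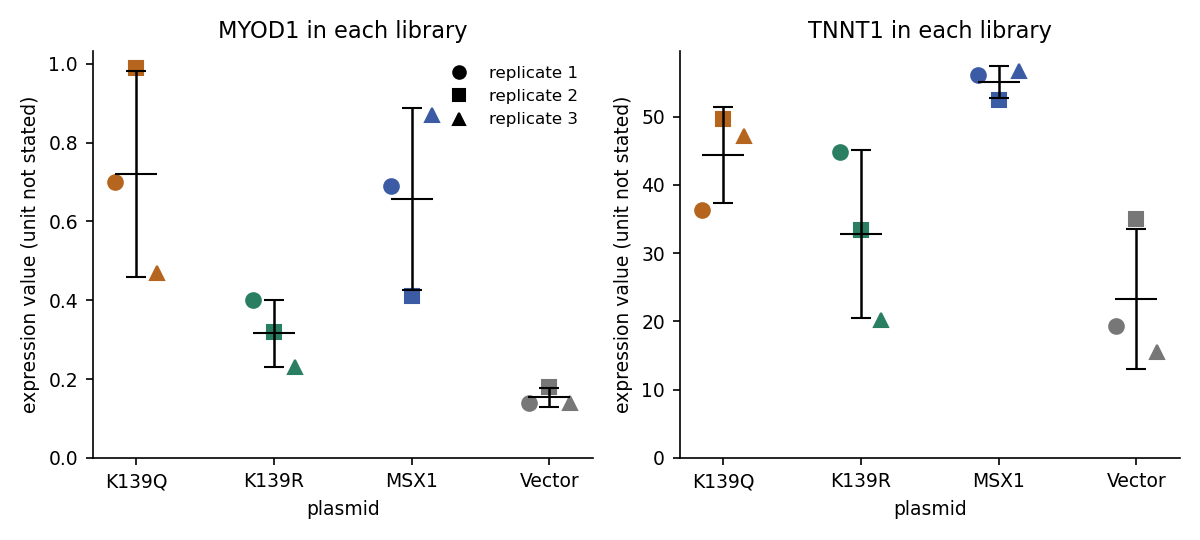
Expression value (unit not stated, linear axis from 0) of MYOD1 (left) and TNNT1 (right) in each library, by plasmid; points are the 3 replicates and the black bars the mean ± SD. All 9 libraries with an MSX1 plasmid lie above the Vector libraries for MYOD1, and the 3 MSX1 libraries lie above the other 9 for TNNT1.

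Both genes rose in the K139Q and MSX1 groups relative to Vector, and neither passed the test in K139R. Differences were fitted with limma on log2(value + 1), with p adjusted by the Benjamini-Hochberg method. TNNT1 was fitted among the 533 genes whose mean reached 1 in any group, and MYOD1, which lies below that filter, among all 665 genes. On this scale the difference of a low gene is smaller than the ratio of its values. In K139Q against Vector, MYOD1 had a log2 fold change of 0.57 (95% interval 0.24 to 0.89, limma adjusted p = 0.00626) and a ratio of means of 4.70. In MSX1 against Vector its log2 fold change was 0.51 (0.19 to 0.84, limma adjusted p = 0.00802) with a ratio of means of 4.28. In K139R against Vector it was 0.19 (-0.13 to 0.51, limma adjusted p = 0.273) with a ratio of means of 2.07. Among the 665 genes, 59.4% passed as higher in K139Q, 57.1% in K139R and 64.8% in MSX1. The MYOD1 libraries lay above all Vector libraries in each comparison, for which the exact two-sided permutation p was 0.1, the smallest that 3 libraries against 3 allow. Of the 665 genes 64.1% in K139Q, 60.6% in K139R and 68.4% in MSX1 did the same. The size of the MYOD1 difference moved with the pseudocount, to 1.65 in K139Q, 0.70 in K139R and 1.53 in MSX1 with 0.1 and to 0.13 in MSX1 with 5, while the K139Q and MSX1 calls stayed.

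TNNT1 in K139Q against Vector had a log2 fold change of 0.97 (95% interval 0.33 to 1.61, limma adjusted p = 0.0103) and a ratio of means of 1.91. In MSX1 against Vector it was 1.29 (0.65 to 1.93, limma adjusted p = 0.00173) with a ratio of 2.37, the 67th highest of 533 log2 fold changes. In K139R against Vector it was 0.49 (-0.15 to 1.13, limma adjusted p = 0.159) with a ratio of 1.41, and 1 of 3 K139R libraries exceeded every Vector library. The exact two-sided permutation p was 0.1 for K139Q and for MSX1 and 0.4 for K139R. Of all 533 genes, 64% passed as higher in K139Q, 60% in K139R and 67.7% in MSX1, and 64.4% in K139Q and 68.5% in MSX1 lay above Vector without overlap. Passing as higher than Vector was thus the usual outcome for a listed gene, and the 3 comparisons share the same Vector libraries.

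The difference of TNNT1 between K139R and Vector depended on single libraries. Without K139R replicate 3 its log2 fold change was 0.79 (limma adjusted p = 0.0267), and without Vector replicate 2 it was 0.81 (adjusted p = 0.026). The TNNT1 call in K139Q against Vector was lost without Vector replicate 3 (log2 fold change 0.73, limma adjusted p = 0.0568). Within replicate numbers of the titles, which the labels also call batches, TNNT1 was higher than Vector in 3 of 3 numbers for K139Q and MSX1 and in 2 of 3 for K139R. MYOD1 was higher in 3 of 3 for each plasmid. Each 3 of 3 follows from the lack of overlap with Vector under any numbering, so it adds nothing to that result.

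**Figure D2:**
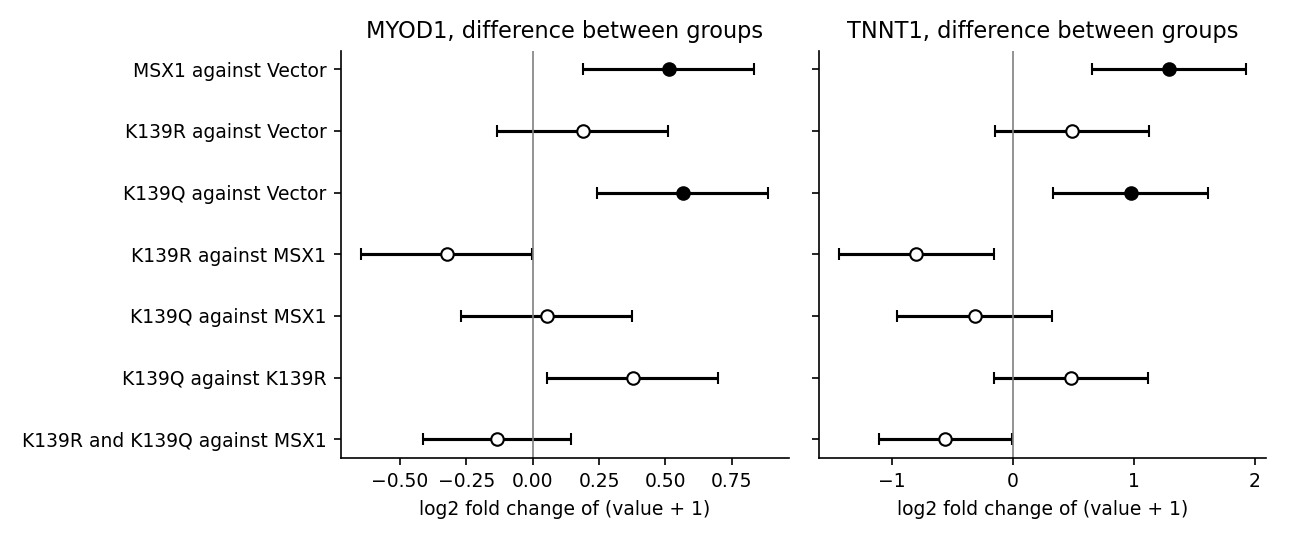
Log2 fold change of (value + 1) from limma for MYOD1 (left) and TNNT1 (right) in the 7 comparisons, with 95% intervals; filled circles have an adjusted p under 0.05. For both genes the filled circles are K139Q against Vector and MSX1 against Vector.

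Among the groups given an MSX1 plasmid, no difference of either gene passed after adjustment. MYOD1 in K139R against MSX1 had a log2 fold change of -0.32 (95% interval -0.65 to -0.0015, limma adjusted p = 0.208). TNNT1 in K139R against MSX1 had a log2 fold change of -0.80 (-1.44 to -0.16, limma adjusted p = 0.103). The K139R libraries lay below all MSX1 libraries for both genes (exact two-sided permutation p = 0.1 each), as did 6.92% of 665 genes and 7.69% of 533. For MYOD1 the closest values were 0.40 in K139R and 0.41 in MSX1. Between K139R and MSX1, 4.32% of 533 genes and 3.61% of 665 passed in either direction. Without K139R replicate 1, TNNT1 passed as lower than MSX1 (log2 fold change -1.05, limma adjusted p = 0.0215).

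In K139Q against MSX1, MYOD1 had a log2 fold change of 0.05 (95% interval -0.27 to 0.38, limma adjusted p = 0.895), with overlapping libraries. TNNT1 had a log2 fold change of -0.32 (-0.96 to 0.32, limma adjusted p = 0.676), although all 3 K139Q libraries lay below all 3 MSX1 libraries (exact two-sided permutation p = 0.1). The share of genes below MSX1 without overlap was 5.25% of 533, and 0.938% of them and 0.752% of 665 genes passed in either direction. These intervals are wide enough to hold a ratio of values above or below 1 for either gene.

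Between the 2 substitutions, K139Q against K139R, MYOD1 had a log2 fold change of 0.38 (95% interval 0.05 to 0.70, limma adjusted p = 0.516) and a ratio of means of 2.27. The K139Q libraries lay above all K139R libraries (exact two-sided permutation p = 0.1), as they did for 2.41% of 665 genes. TNNT1 had a log2 fold change of 0.48 (-0.16 to 1.12, limma adjusted p = 0.574), and 2 of 3 K139Q libraries exceeded every K139R library. Of 533 genes 0.188% passed between these groups, and 0.15% of 665, neither member among them. The arginine and glutamine forms thus differed in MYOD1 without overlap, a difference that did not pass across all genes.

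With both substitutions pooled against MSX1, TNNT1 was lower in 6 of 6 libraries than in any MSX1 library (log2 fold change -0.56, 95% interval -1.11 to -0.0060, limma adjusted p = 0.211). The exact two-sided permutation p was 0.0238, the smallest that 6 libraries against 3 allow, and 1.69% of 533 genes were lower without overlap. The MSX1 libraries also took part in the choice of the list, so this p is not from an independent test. MYOD1 had a log2 fold change of -0.14 (-0.41 to 0.14, limma adjusted p = 0.573, exact permutation p = 0.476). In either direction 3.75% of 533 genes and 2.86% of 665 passed. After adjustment over the 14 permutation tests of both genes, the lowest p was 0.14.

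The levels ran K139Q, MSX1, K139R and Vector from high to low for MYOD1, and MSX1, K139Q, K139R and Vector for TNNT1. For MYOD1 the neighbours K139Q and MSX1 overlapped, and the other neighbouring pairs did not, MSX1 and K139R only by 0.41 against 0.40. For TNNT1 the neighbours MSX1 and K139Q did not overlap, whereas K139Q and K139R, and K139R and Vector, did. No neighbouring pair of either gene passed limma.

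No relation of MYOD1 or TNNT1 with the amount of MSX1 transcript passed across the 9 libraries with an MSX1 plasmid. On the log2(value + 1) scale, MSX1 and MYOD1 had a Pearson's r of 0.40 (permutation p = 0.292, adjusted p = 0.438 over 3 relations) and a Spearman's rho of 0.42 (p = 0.270, adjusted 0.404). Without the 2 libraries farthest from the median of MSX1, r was 0.40. MSX1 and TNNT1 had an r of 0.16 (exact permutation p = 0.688, the adjusted value too) and a rho of -0.15 (p = 0.708, the adjusted value too), and r was -0.0080 without the 2 farthest libraries. MYOD1 and TNNT1 had an r of 0.65 (exact permutation p = 0.0478, adjusted 0.143) and a rho of 0.67 (p = 0.0589, adjusted 0.177), with r at 0.62 without the 2 farthest. With 3 libraries per plasmid, no relation was computed within a group. The permutations moved values freely among the 9 libraries, so differences between plasmid groups enter these p-values.

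The libraries differed in how expression varied with GC content, and the level of TNNT1 moved with it. For each library the slope of log2(value + 1) on GC content over 510 genes was taken relative to the mean of the 12 libraries. It was -0.02 to 0.24 per 10 GC points in the K139Q libraries, -0.32 to 0.23 in K139R and 0.15 to 0.30 in MSX1, against -0.29 to -0.23 in Vector. In the 9 libraries with an MSX1 plasmid, this slope and TNNT1 had a Pearson's r of 0.95 (exact permutation p = 0.000298, adjusted p = 0.00149 over 5 relations) and a Spearman's rho of 0.92 (p = 0.00131, adjusted 0.00656). The r was 0.85 without the 2 libraries farthest from the median slope, K139R replicates 2 and 3. Of 532 other genes, 12 had an r at least as high, and the median r was 0.17. For MYOD1 the r was 0.70 (exact permutation p = 0.0373, adjusted 0.0797) and the rho 0.70 (p = 0.0433, adjusted 0.0982). Without the same 2 libraries the r of MYOD1 was 0.28, so its relation rests on them, and 143 of 533 other genes had an r at least as high. Both relations were chosen after the values had been seen, and the slope contains the listed genes themselves. Their p-values treat the 9 libraries as exchangeable, although these belong to different plasmid groups. The part of GC content in the group differences was not tested beyond the removal of its trend. That removal shifts a gene by its own GC content and does not test either relation.

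**Figure D3:**
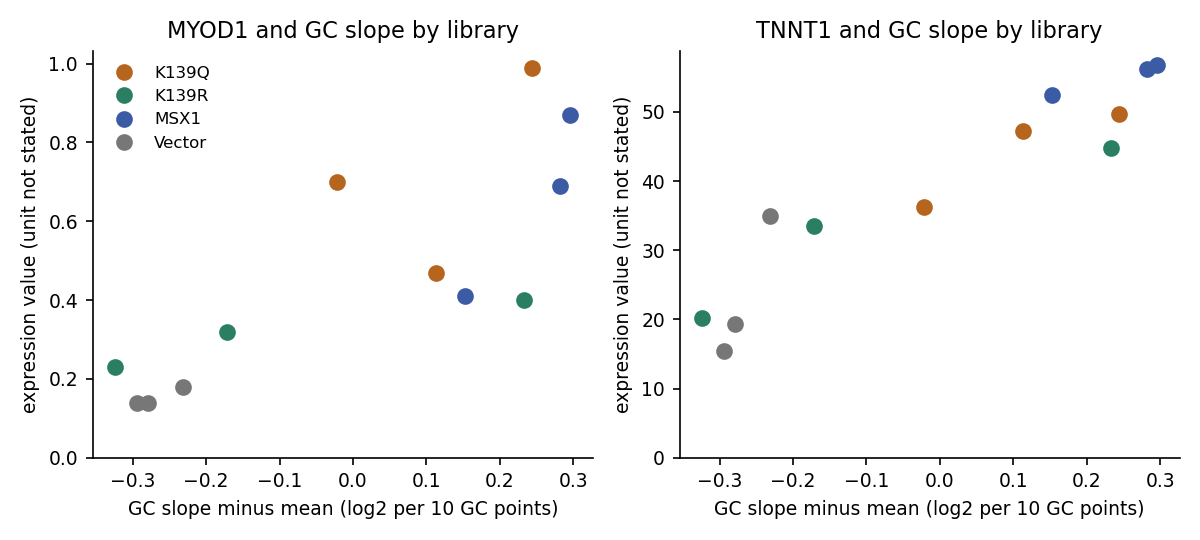
Expression value (unit not stated) of MYOD1 (left) and TNNT1 (right) against the GC slope of each library minus the mean slope, in log2 units per 10 GC points, coloured by plasmid. TNNT1 runs from 15.49 to 56.77 along the slope in all 12 libraries, whereas MYOD1 spreads from 0.40 to 0.99 among libraries with a positive slope.

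The longest MYOD1 transcript has 65.5% GC, the 89.4th percentile of the listed genes, and that of TNNT1 59.8%, the 66.3rd percentile, with a median of 56.7% over 635 genes with a value. After a linear GC trend was removed from each library, the MYOD1 log2 fold change was 0.21 in K139Q against Vector (limma adjusted p = 0.191) and 0.03 in MSX1 against Vector (adjusted p = 0.843). Both MYOD1 calls were lost. With a pseudocount of 0.1 in the same fit, a setting added after the data had been seen, MYOD1 passed in K139Q (1.10, limma adjusted p = 0.00242) and in MSX1 (0.76, adjusted p = 0.0164). After removal of the GC trend, the MYOD1 calls thus depended on the pseudocount. TNNT1 kept its calls after removal of the GC trend, at 0.80 in K139Q (limma adjusted p = 0.0169) and 1.06 in MSX1 (adjusted p = 0.00326). The shift grows with a gene's distance from the mean GC content, so it is smaller for TNNT1 than for MYOD1 by construction.

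Quantile normalization, which gives all libraries one distribution of the listed genes, ended all 4 calls against Vector. MYOD1 was at 0.26 in K139Q (limma adjusted p = 0.1) and 0.27 in MSX1 (adjusted p = 0.0744), and TNNT1 at 0.09 (adjusted p = 0.799) and 0.55 (adjusted p = 0.0778). In K139R against Vector the direction turned, to -0.11 for MYOD1 and -0.10 for TNNT1. Of the 666 listed genes 480 have a higher mean in MSX1 than in Vector, and quantile normalization pulled the middle of the fold changes down with them. Over 533 genes the median was 0.17 in K139Q, 0.13 in K139R and 0.31 in MSX1 after quantile normalization, and 0.69, 0.65 and 0.77 as deposited. Relative to that median, TNNT1 was 0.25 higher in MSX1 after quantile normalization and 0.52 higher as deposited. MYOD1 lay 0.0046 above the median of its 665 genes in MSX1 after normalization and 0.07 below it as deposited (-0.0746).

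**Figure D4:**
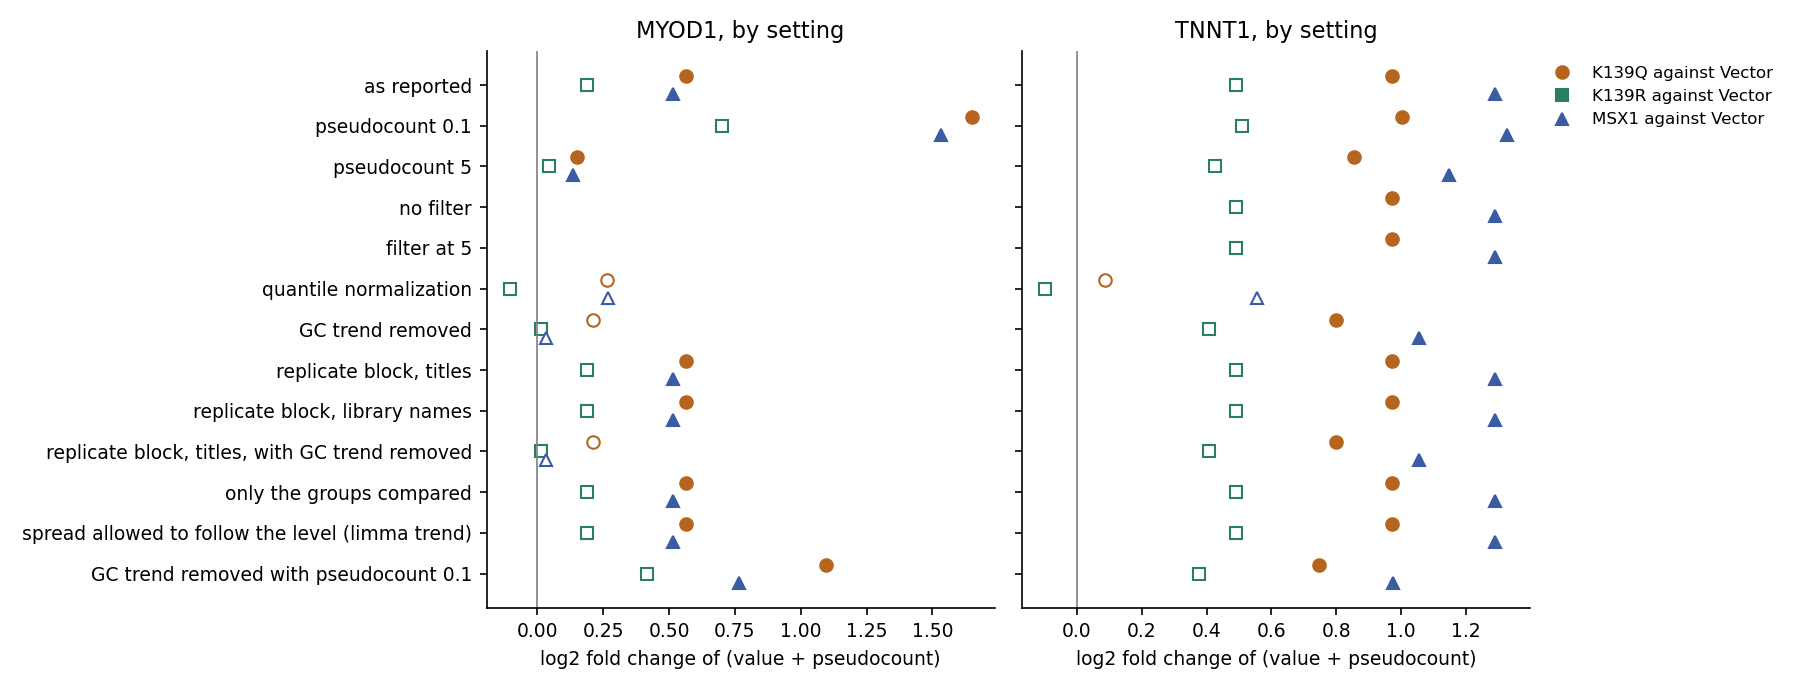
Log2 fold change of (value + pseudocount) against Vector under each setting, for MYOD1 (left) and TNNT1 (right), with K139Q as circles, K139R as squares and MSX1 as triangles; filled symbols have an adjusted p under 0.05. All symbols are open under quantile normalization, and those of MYOD1 are also open after the GC trend was removed with a pseudocount of 1.

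The genes whose levels were most like those of MYOD1 over all 12 libraries were ISLR2, ZC3H12A, SNAI3, TENT5B and TNFSF9. Likeness was the Pearson's r of log2(value + 1), given as a description over points that share the plasmid groups. Among 533 genes, ISLR2, an immunoglobulin and leucine-rich repeat protein, had an r of 0.94 and ZC3H12A, an RNase that degrades inflammatory transcripts, 0.93. SNAI3, a zinc finger factor of the Snail family, was also at 0.93, and TENT5B and the cytokine TNFSF9 were at 0.91. The lowest r was -0.85, of the axonemal dynein gene DNAI4. The median over all genes was 0.60, TNNT1 was 144th with 0.77 and MSX1 198th with 0.71. ISLR2 averaged 1.01 ± 0.275 in K139Q, 0.563 ± 0.240 in K139R, 0.807 ± 0.117 in MSX1 and 0.253 ± 0.0503 in Vector (SD, n = 3 each), the same order of groups as MYOD1. It was chosen by its r over these same libraries, which favours a shared order, so the order is no separate result. ISLR2 passed the filter through its K139Q mean alone.

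The genes most like TNNT1 were PHLDA2, MISP3, BIK, SYTL1 and PLEKHB1, with an r from 0.93 to 0.90 among 532 genes. PHLDA2 is an imprinted growth regulator and BIK a pro-apoptotic member of the BCL2 family. PHLDA2 averaged 34.0 ± 9.55 in K139Q, 22.01 ± 11.2 in K139R, 37.2 ± 0.470 in MSX1 and 9.86 ± 2.19 in Vector (SD, n = 3 each). Its group order is that of TNNT1, with the MSX1 libraries again close together, which the choice by r over the same libraries favours. The lowest r was -0.96, of MTTP, which loads lipid onto lipoproteins and averaged 0.500 ± 0.156 in K139Q, 0.760 ± 0.420 in K139R, 0.380 ± 0.150 in MSX1 and 1.03 ± 0.376 in Vector. MTTP passed the filter through its Vector mean alone. The median over all genes was 0.56, and MSX1 was 201st with 0.67.

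Few other skeletal muscle genes were in the table, and tests of list genes other than TNNT1 are from the fit of all 665 genes. Of 20 transcription factors and fusion genes of skeletal muscle, MYOD1 and the cadherin CDH15 (M-cadherin) were listed. Of 56 contractile and excitation genes, TNNT1, the calcium-binding protein of the sarcoplasmic reticulum CASQ1 and the calcium release channel RYR1 were listed. None of 14 cardiac muscle genes was listed, and of 12 smooth muscle genes only CNN1, the actin-binding calponin, was. Genes outside the table have no value here, so their absence says only that they did not enter it. Summed over the 3 listed contractile genes, the level ran from 37.62 to 51.82 in K139Q, 21.26 to 47.26 in K139R and 54.08 to 58.47 in MSX1, against 16.30 to 35.37 in Vector. TNNT1 had the highest values of the 3 and sets this sum, which with the unit unstated compares groups and not genes.

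CASQ1 rose in all 3 plasmid groups. It was at 0.60, 0.50 and 0.35 in K139Q, at 0.71, 0.48 and 0.57 in K139R and at 0.70, 0.35 and 0.59 in MSX1, against 0.14, 0.17 and 0.13 in Vector. The log2 fold change over Vector was 0.37, 0.47 and 0.43 in the same plasmid order (limma adjusted p = 0.0256, 0.00989 and 0.0106 over 665 genes). Over 665 genes the median was 0.55, 0.53 and 0.59, above the CASQ1 value in each group. All CASQ1 values lie below 1, where this scale gives small differences. The plasmid libraries did not overlap Vector, and the 3 plasmid groups overlapped each other. Of 665 genes, 59.4%, 57.1% and 64.8% passed as higher in the same order. Without overlap, 64.1%, 60.6% and 68.4% lay above Vector, so CASQ1 showed the usual outcome. Its K139Q call was lost when any of 4 single libraries was left out and with a pseudocount of 5, and all 3 calls were lost under quantile normalization (0.07, 0.14 and 0.18).

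CDH15 passed in MSX1 and did not pass in K139Q or K139R, and neither substitution passed against MSX1. It was at 0.41, 1.14 and 0.74 in K139Q, 1.02, 1.29 and 0.86 in K139R and 1.73, 0.90 and 1.21 in MSX1, against 0.78, 0.58 and 0.56 in Vector. Its log2 fold change was 0.46 in MSX1 (limma adjusted p = 0.0311), and the call was lost without any of 4 single libraries. Removal of the GC trend turned it to -0.04 (adjusted p = 0.859). RYR1 did not pass, with log2 fold changes of 0.31 in K139Q, 0.26 in K139R and 0.52 in MSX1 (limma adjusted p = 0.309, 0.379 and 0.078). Its Vector libraries, at 0.21 to 1.03, overlapped K139Q and K139R but not MSX1. The margin to MSX1 was the smallest recorded step, 1.04 in MSX1 replicate 3 against 1.03 in Vector replicate 1. Of 665 genes, 68.4% lay above Vector without overlap in MSX1. RYR1 in MSX1 passed when only those 2 groups were fitted (adjusted p = 0.0363). CNN1 rose in all groups, to 4.02 ± 0.428 in K139Q, 4.37 ± 1.46 in K139R and 2.13 ± 0.194 in MSX1, against 0.737 ± 0.112 in Vector (SD, n = 3 each; log2 fold change 1.53, 1.60 and 0.85). Of 665 genes, 59.4%, 57.1% and 64.8% passed as higher in the same order. In K139R against MSX1 CNN1 was higher, with a log2 fold change of 0.75 (limma adjusted p = 0.043), the opposite side from MYOD1 and TNNT1. That call was lost under 14 other settings, among them the replicate block (adjusted p = 0.0825 for the numbers of the titles).

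**Figure D5:**
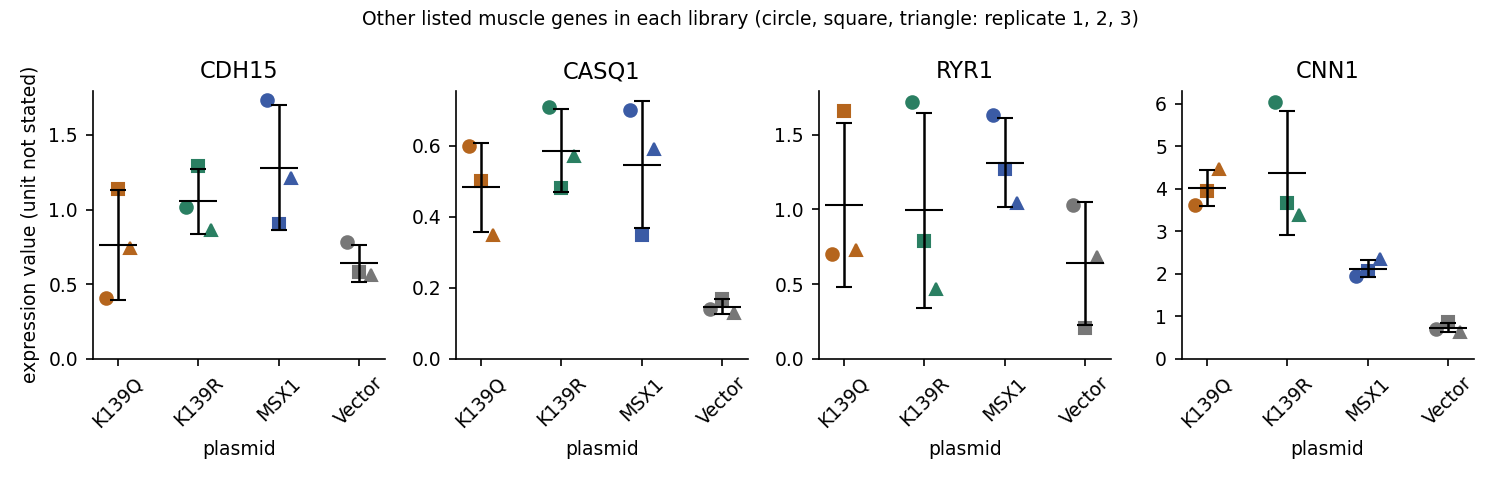
Expression value (unit not stated, linear axes from 0 with a scale per gene) of the other muscle genes in the table, CDH15, CASQ1, RYR1 and CNN1, in each library by plasmid, with the mean ± SD. CASQ1 and CNN1 lie above Vector in all 9 libraries with an MSX1 plasmid, whereas CDH15 overlaps Vector in K139Q and RYR1 in K139Q and K139R.

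Of 28 genes known to restrain myogenesis, 4 were listed. The Notch receptors NOTCH1 and NOTCH3 and the zinc finger repressor SNAI1 passed as higher in all 3 plasmid groups. SNAI1 was at 4.27, 5.34 and 2.69 in K139Q, 4.55, 2.76 and 2.46 in K139R and 4.47, 3.17 and 3.46 in MSX1, against 1.22, 0.70 and 1.04 in Vector (log2 fold change 1.33, 1.08 and 1.24). HEY2, a Notch target that represses transcription, was at 8.61 ± 0.725 in K139Q, 9.40 ± 1.39 in K139R and 6.34 ± 0.861 in MSX1, against 12.2 ± 2.06 in Vector (SD, n = 3 each). HEY2 fell by 0.84 on the log2 scale in MSX1 (limma adjusted p = 0.000945) and by 0.45 in K139Q (adjusted p = 0.0256), and was at -0.34 in K139R (adjusted p = 0.0794). Its K139Q call was lost under 7 other settings, among them removal of the GC trend (-0.20, adjusted p = 0.384), and its MSX1 call under 1, removal of the GC trend with a pseudocount of 0.1 (-0.38, adjusted p = 0.201). In K139R it passed as lower under 3 settings, at -1.07 after quantile normalization (adjusted p = 0.000122), -0.47 without Vector replicate 2 and -0.45 without K139R replicate 1. From a list of 10 transcriptional targets of MSX1, MYOD1 and SNAI1 were in the table. Of 10 genes tied to cell cycle exit in myogenesis 2 were listed, the inhibitor CDKN1C and the stress gene GADD45B. Both passed as higher in all 3 groups, with GADD45B at log2 fold changes of 2.83 in K139Q, 2.31 in K139R and 2.31 in MSX1. The K139R calls of NOTCH3 and CDKN1C were lost without single libraries, without any of 3 for NOTCH3 and of 4 for CDKN1C. Quantile normalization ended the calls of NOTCH3 in K139Q (0.17, limma adjusted p = 0.368) and K139R (0.08, adjusted p = 0.695), of CDKN1C in K139Q (0.52, adjusted p = 0.0624) and K139R (0.16, adjusted p = 0.563) and of NOTCH1 in K139R (0.41, adjusted p = 0.119). Among the 665 genes the median log2 fold change over Vector was 0.55 in K139Q, 0.53 in K139R and 0.59 in MSX1. Of these genes 59.4% passed as higher in K139Q, 57.1% in K139R and 64.8% in MSX1, so passing as higher was usual.

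Markers of other cell types in the table were also counted, beside the 59.4% of 665 genes that passed as higher than Vector in K139Q, 57.1% in K139R and 64.8% in MSX1. Of 16 neuronal markers 5 were listed, and 3 passed as higher than Vector in K139Q, 4 in K139R and 5 in MSX1. Among the 533 genes past the filter, 4 of 4 neuronal markers passed in each group, beside 64% of all 533 in K139Q, 60% in K139R and 67.7% in MSX1. The filter drops NEFH, which did not pass in K139Q or K139R (limma adjusted p = 0.128 and 0.0538 over 665 genes). RBFOX3 also did not pass in K139Q over 665 genes (limma adjusted p = 0.0539). Of 11 epithelial markers EPCAM and KRT17 were listed, and both passed in every plasmid group. The mesenchymal COL1A1 and S100A4 passed in K139Q and MSX1, and COL1A1 alone in K139R. The summed level of the neuronal markers was 64.84 to 102.61 in K139Q, 45.58 to 82.74 in K139R and 58.87 to 81.11 in MSX1, against 15.11 to 19.77 in Vector. That of the epithelial markers was 6.17 to 6.90 in K139Q, 6.19 to 6.95 in K139R and 7 to 7.35 in MSX1, against 2.29 to 2.71 in Vector. That of the mesenchymal markers was 13.18 to 17.45 in K139Q, 8.94 to 13.08 in K139R and 18.36 to 21.62 in MSX1, against 5.17 to 7.97 in Vector. None of 7 endothelial markers was listed. The part of other cells or of a change in cell type in the MYOD1 and TNNT1 differences was not tested.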

How the data were processed

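RNA was sequenced from 12 libraries (poly(A)-selected, stranded) in 4 groups of 3. Per the labels, RSEM was used, while the study's methods name featureCounts, and the aligner and genome build are not given in the sources used here. The deposited values are scores, scaled by the authors for each of 666 genes. They were taken to be the natural log of the expression value plus 1, set to mean 0 and SD 1. From these scores the expression values were recovered for 665 genes by a search tested on simulated data. The plus 1 and a step of 0.01 were assumed, and all 12 values of a gene had to fall on steps. A whole-number multiple of the value plus 1 gives the same scores, so solutions with a common factor were dropped. The search stopped at the first range that held a solution. Under these rules each of the 665 genes had exactly 1 solution, and absolute levels rest on them. The methods give a target depth, and the depth obtained per library is unknown.

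Values were fitted with limma 3.58.1 in R 4.3.3 on log2(value + 1), all 12 libraries and group only, with a filter of a group mean of at least 1 and Benjamini-Hochberg adjustment. MYOD1 failed this filter and was taken, like the list genes other than TNNT1, from the fit without a filter. Since counts were not in the table, no count model was used. Exact permutation tests used scipy 1.17.1. GC content came from GENCODE 29 transcripts. Alternatives were pseudocounts, filters, quantile normalization, GC trend removal, replicate blocks, fewer groups and omission of each library. Samples were grouped by their titles. Named genes were the members, MSX1, every listed gene of the fixed gene lists, and for each member the 5 most and 1 least alike by Pearson's r; not all list genes are given with values. The result of 1 marker list is not reported here. The members and lists were chosen with earlier results of these data known.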

Additional observations from a re-analysis of the deposited data

How the results depend on the processing

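Across the 14 comparisons of MYOD1 and TNNT1, 303 of the values under other settings kept their direction and side of the threshold, 7 turned direction, 9 lost their call and 3 gained one. Part of the 303 is fixed by construction. Omission of a library from a group not compared leaves the log2 fold change as it was, and so does the replicate block. For comparisons that had not passed, the same side means still not passing. All 9 losses fell on the K139Q and MSX1 calls against Vector. Quantile normalization gave MYOD1 0.26 (K139Q), -0.11 (K139R) and 0.27 (MSX1) and TNNT1 0.0866, -0.10 and 0.55 against Vector, and MYOD1 -0.0047 in K139Q against MSX1. Removal of the GC trend gave MYOD1 0.21 and 0.0344 in K139Q and MSX1 against Vector and 0.0787 in both substitutions against MSX1, with or without a replicate block. Cause was not tested beyond what each setting does by construction. MYOD1 has no value of its own with a filter at 5, which it fails, or without a filter, as it is fitted already. Without single libraries, the log2 fold change of MYOD1 ran from 0.46 to 0.67 in K139Q, 0.14 to 0.24 in K139R and 0.42 to 0.62 in MSX1 against Vector, and from -0.0587 to 0.16 in K139Q against MSX1, below 0 without MSX1 replicate 2 or K139Q replicate 2 (-0.0579). That of TNNT1 ran from 0.73 to 1.30, 0.24 to 0.81 and 1.05 to 1.61 against Vector, and from -1.05 to -0.50 in K139R against MSX1.

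Same-numbered deviations from the group means correlated at -0.483 to 0.18 for titles (3 of 18 pairs over 0.1). With 3 libraries per group, these correlations cannot decide whether same-numbered libraries were paired. The numberings differ for MSX1 alone, where title replicates 1 and 2 are numbered 2 and 1 in the library names. The replicate block changed no MYOD1 or TNNT1 call (MYOD1 in MSX1 against Vector kept 0.51, limma adjusted p = 0.0159), but left 6 genes called in K139R against MSX1 with titles and 0 with library names, against 23 without it. In that comparison 8, 9 and 7 genes passed with pseudocounts of 0.1 and 5 and a filter at 5, and 0 to 140 without single libraries, the most without K139R replicate 1. Against 5, 1 and 20 genes called in K139Q against MSX1, K139Q against K139R and both substitutions against MSX1, the other settings gave 1 to 8, 0 to 1 and 7 to 22, and omission of single libraries up to 10, 26 and 78. A filter at 5 left 138 genes called in K139Q, 128 in K139R and 157 in MSX1 against Vector, and quantile normalization 231 in K139Q (114 higher, 117 lower) and 183 in K139R (85 higher, 98 lower), against 391 (341 and 50) and 349 (320 and 29). Of the other muscle genes, CDH15 turned to -0.14 in K139R and -0.34 in K139Q and RYR1 to -0.18 and -0.12 under quantile normalization. CDH15 also turned to -0.0381 in MSX1 and -0.28 in K139Q after removal of the GC trend (with a replicate block too), to -0.43 in K139Q with a pseudocount of 0.1 as well, and to -0.0637 without K139Q replicate 2.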
